A study of Mus musculus with 8 samples.

Results

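Of the places where C/EBPα was found in every library of the series, 9091 lay inside genes, away from their ends, and these constant intragenic regions are described here. The peaks of the 6 anti-C/EBPα libraries were merged wherever they overlapped by at least 1 bp, which gave 259446 regions, of which 23480 held a peak in all 6. A region was taken when it was autosomal, held a peak in all 6 lists, had its midpoint inside a protein-coding gene of the mm10 RefSeq annotation and lay over 1 kb from every end of such a gene. The 9091 were 38.7% of the regions called in all 6 libraries, next to 5369 at gene ends, 6321 between genes but within 50 kb of one, 2247 farther out and 452 off the autosomes. C/EBPα was profiled by CUT&RUN, an assay in which a nuclease guided by an antibody cuts out the DNA around a bound protein. The cells were mouse bone marrow progenitors sorted as Lin- KIThi-int FLT3+. Their genotypes at the Zeb2 -165 kb enhancer were DC, DE and WT, with 2 libraries each, 1 in batch 1 (replicate 1) and 1 in batch 2 (replicate 2). The sources used here do not spell out what the variants DC and DE change, nor the age of the mice, whether animals were pooled or whether replicates were separate animals, so p-values measure the spread between these libraries. Binding inside a gene does not show its expression, so the sorted cell type could not be checked against marker levels. IgG libraries from WT cells were not analysed here.

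C/EBPα is a basic leucine zipper factor that binds as a dimer to pairs of half-sites related to TTGCNNAA. It opens and activates enhancers of the myeloid programme together with the ETS factor PU.1 and RUNX factors, and it is needed for the step to granulocyte and monocyte progenitors. Many of its sites lie in introns, which can hold enhancers of the surrounding gene or of a neighbour, as well as start sites of shorter transcripts.

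Sequence could be read for those regions that lay on an annotated start site inside the gene. The RefSeq promoter table (GRCm38.p6, the mm10 assembly) holds 300-base windows, 250 bases before and 50 after each start, and 3869 windows in 2905 genes were internal, over 1 kb from both ends of the gene. Of the 7190 regions in genes with a strand in that table, 473 (6.58%) overlapped an internal window, and 276 of them had all 6 library summits inside it. The upstream bases within 60 bases of the median summit are printed for 8 regions. 6 of them are from the 12 genes where the weakest library had the highest fold over local background, chosen to show windows with and without the motif. Among the 243 genes with such a stretch, 35 (14.4%) held TTGCNNAA in it. The printed choice therefore does not show how common the motif was. Myadm and Anks3 are shown because their binding was lower in DC than in WT. Capitals mark TTGCNNAA read on either strand, and each sequence runs 5′ to 3′ on the strand of its gene.
Adcy7 (adenylate cyclase 7), chr8:88282833-88282953, plus strand: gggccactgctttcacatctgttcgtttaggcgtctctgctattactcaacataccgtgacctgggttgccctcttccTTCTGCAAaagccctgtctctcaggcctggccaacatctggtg
Retreg1 (a receptor for autophagy of the endoplasmic reticulum), chr15:25940528-25940648, plus strand: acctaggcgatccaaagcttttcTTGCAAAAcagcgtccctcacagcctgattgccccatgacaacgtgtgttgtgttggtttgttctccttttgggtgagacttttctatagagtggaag
Stk25 (a serine/threonine kinase), chr1:93635752-93635872, minus strand: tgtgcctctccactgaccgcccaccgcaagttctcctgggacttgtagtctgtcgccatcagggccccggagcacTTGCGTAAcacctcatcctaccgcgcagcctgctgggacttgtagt
Bmf (a BH3-only promoter of cell death), chr2:118547600-118547696, minus strand: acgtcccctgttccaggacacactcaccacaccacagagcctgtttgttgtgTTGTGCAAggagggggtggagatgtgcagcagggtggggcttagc
Il1rn (the interleukin-1 receptor antagonist), chr2:24345203-24345290, plus strand: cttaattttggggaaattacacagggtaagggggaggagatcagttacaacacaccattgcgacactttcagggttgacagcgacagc
Srgn (serglycin, the proteoglycan of haematopoietic granules), chr10:62507837-62507957, minus strand: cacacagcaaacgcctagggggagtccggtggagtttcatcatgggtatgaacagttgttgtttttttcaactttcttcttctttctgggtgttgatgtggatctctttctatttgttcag
Myadm (a myeloid-associated membrane protein), chr7:3290367-3290487, plus strand: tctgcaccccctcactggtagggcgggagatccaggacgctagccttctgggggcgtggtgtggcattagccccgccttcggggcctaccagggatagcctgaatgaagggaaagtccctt
Anks3, chr16:4964283-4964403, minus strand: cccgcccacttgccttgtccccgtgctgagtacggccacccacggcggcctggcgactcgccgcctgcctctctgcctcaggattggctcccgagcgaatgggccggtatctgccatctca

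The motif lay 21 bases from the median summit in Adcy7, 34 in Retreg1, 18 in Stk25 and 5 in Bmf, whose summits in the 6 libraries spanned 15, 29, 40 and 20 bases. Il1rn and Srgn held no TTGCNNAA in the bases printed, yet their lowest folds over background were 41.6 and 25.3. Among the 295 internal windows that held all 6 summits, 63 (21.4%) contained TTGCNNAA on either strand. The share was 10.5% of the 2382 internal windows that overlapped no peak of any library, and 10.3% of all 20063 windows. The perfect palindrome TTGCGCAA, which is a case of TTGCNNAA, was in 4 of the 295 windows (1.36%), against 1 of the 2382 (0.0420%) and 0.219% of all windows. TTGCATCA, a composite of C/EBP and ATF half-sites, was in 1.69% against 0.882% and 0.763%. The ETS motif GAGGAAGT was in 4.07% against 2.06% and 3.18%, and the AP-1 motif TGANTCA in 7.46% against 8.14% and 7.06%. All motifs were read on both strands, and the windows with peaks were chosen by those peaks, so the shares are descriptions.

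The files give for each peak the fold at its summit over the local background, as the authors' peak caller computed it, together with a p-value. From both, the number of fragments over the summit (the pileup) was recovered. In 160 of the 9091 constant intragenic regions, 159 of them in DC replicate 2, both a smaller and a larger pileup matched, and the one nearest the deposited p-value was kept. Of these 160, 10 passed in DC against WT and 0 in DE, in the fit with batch as a term described below. Of all 9091, 362 were higher and 111 lower in DC, and 117 and 23 in DE. A scaled pileup is this number divided by a factor per library (0.652 in DC replicate 2 to 1.62 in DC replicate 1) that equalises the regions called in all 6 libraries. In the constant intragenic regions the median pileup was 58 and 22 fragments in DC replicates 1 and 2, 41 and 30 in DE, and 34 and 31 in WT. The median fold over background was 21.8 and 12.2 in DC, 13.0 and 15.6 in DE, and 12 and 10.5 in WT. The fold lay above that of the constant gene-end regions in 6 of 6 libraries, where it was 17.3 and 10.9 in DC, 10.8 and 12.8 in DE, and 9.43 and 9.37 in WT. The pileup lay above in only 2 of 6 libraries, DC replicate 1 and WT replicate 1. At gene ends the median local background was 1.92 and 1.62 fragments in DC, 2.53 and 1.81 in DE, and 2.26 and 4.58 in WT, and in the intragenic regions 1.23 and 0.647 in DC, 1.78 and 0.724 in DE, and 1.50 and 1.53 in WT. Its part in the higher fold was not tested. DC replicate 1 stood apart by its 169943 peaks, against 50221 to 82080 in the other libraries, and 5.35% of its peaks fell in constant intragenic regions, against 11.1% to 18.1%. Read totals were not in the files, so depth is unknown.

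**Figure D1:**
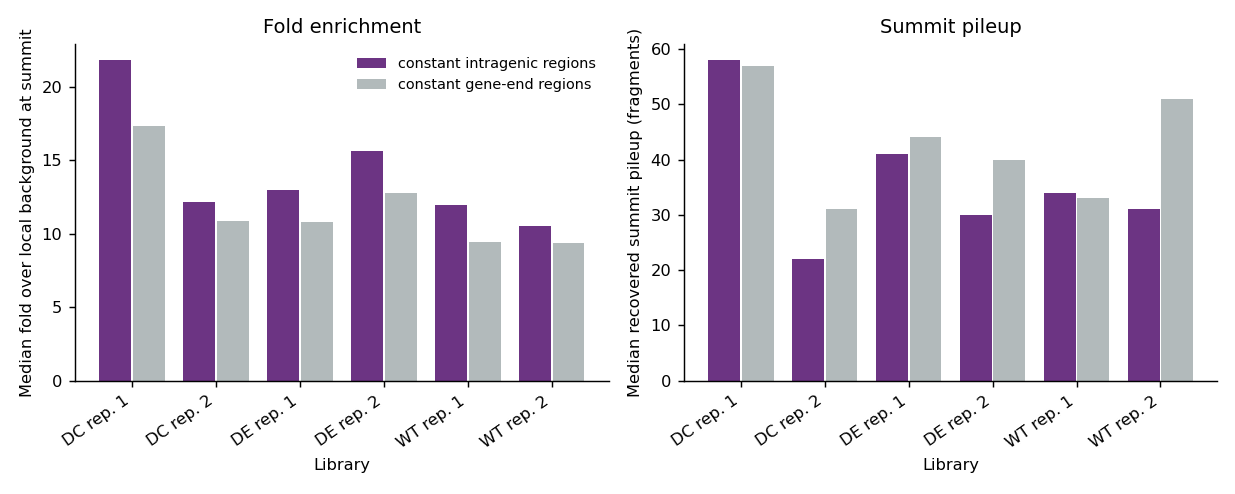
Median fold over local background at the summit (left) and median recovered summit pileup in fragments (right) in each library, for constant intragenic regions (purple) and constant gene-end regions (grey). The purple bar is above the grey one in 6 of 6 libraries for the fold and in 2 of 6 for the pileup. The constant regions between genes, whose median folds lay slightly above the intragenic ones in each library, are not drawn.

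The regions were short and mostly single peaks. Their median width was 423 bp, with the middle of the distribution from 325 to 566 bp, and 7811 of them held exactly 1 peak of each library. The median distance to the nearest gene end was 14.5 kb, and for regions with a strand the median distance to the 5′ end was 25.4 kb, with 30.1% within 10 kb of it. Another constant intragenic region lay within 5 kb of 34.0% of them. The region taken nearest to the distance limit, in Tshz1, lay 1001 bp from a gene end and had folds of 29.5 and 10.3 in DC, 15.8 and 16.2 in DE, and 23.4 and 12.7 in WT. The nearest one left out, in S1pr1 on chromosome 3 (115713730 to 115714383), lay at 999 bp and had folds of 15.6 and 11.7 in DC, 8.96 and 9.95 in DE, and 4.72 and 4.21 in WT.

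Along the gene the regions thinned out towards the 3′ end. With each gene divided into 5 equal stretches from its 5′ end, 27.8%, 22.7%, 19.4%, 16.4% and 13.7% of the 7190 regions with a strand lay in stretches 1 to 5. Intragenic regions called in 1 library only were spread evenly, with 20.2%, 20.4%, 20.4%, 20.0% and 19.0% of 65748 in the same stretches. Regions called in 2 to 5 libraries had 26.0%, 26.8%, 26.1% and 26.8% in stretch 1.

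**Figure D2:**
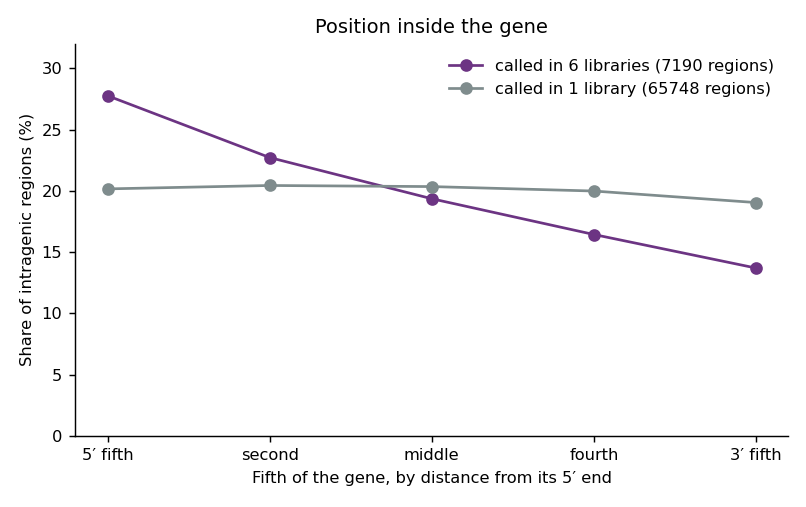
Share of intragenic regions (%) in each of 5 equal stretches of the gene, from the 5′ end (left) to the 3′ end (right), for regions called in 6 libraries (purple, 7190 regions with a strand) and in 1 library (grey, 65748). The purple line falls from 27.8% to 13.7%, and the grey one stays between 19.0% and 20.4%.

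A constant intragenic region was found in 4439 of 20665 autosomal protein-coding genes (21.5%). Of these genes 2549 held 1 and 395 held at least 5. The share of genes with a region was 1.42% below 5 kb of length and 55.6% between 200 and 500 kb. The 1 kb rule sets part of the low share, since it leaves no room in the 2291 genes of at most 2 kb among the 4569 of at most 5 kb. Per length the longest genes held few, with 0.227 regions per 100 kb in genes over 500 kb, against 1.49 in genes of 10 to 20 kb. The most were in Pde4d, a cAMP phosphodiesterase, with 24 in 1302 kb. Foxp1, a forkhead repressor, held 22, Arhgap26 21, and Etv6, an ETS repressor needed by blood stem cells, 19. Asap1, an Arf GTPase-activating protein, and Ptpre, a receptor tyrosine phosphatase, held 17 each. The densest of these 6 genes was Ptpre, with 11.5 regions per 100 kb, followed by Etv6 with 8.10, and Pde4d had 1.84. Within Etv6 the folds ran from 2.34 to 161, so a gene with many regions held both weak and strong ones.

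**Figure D3:**
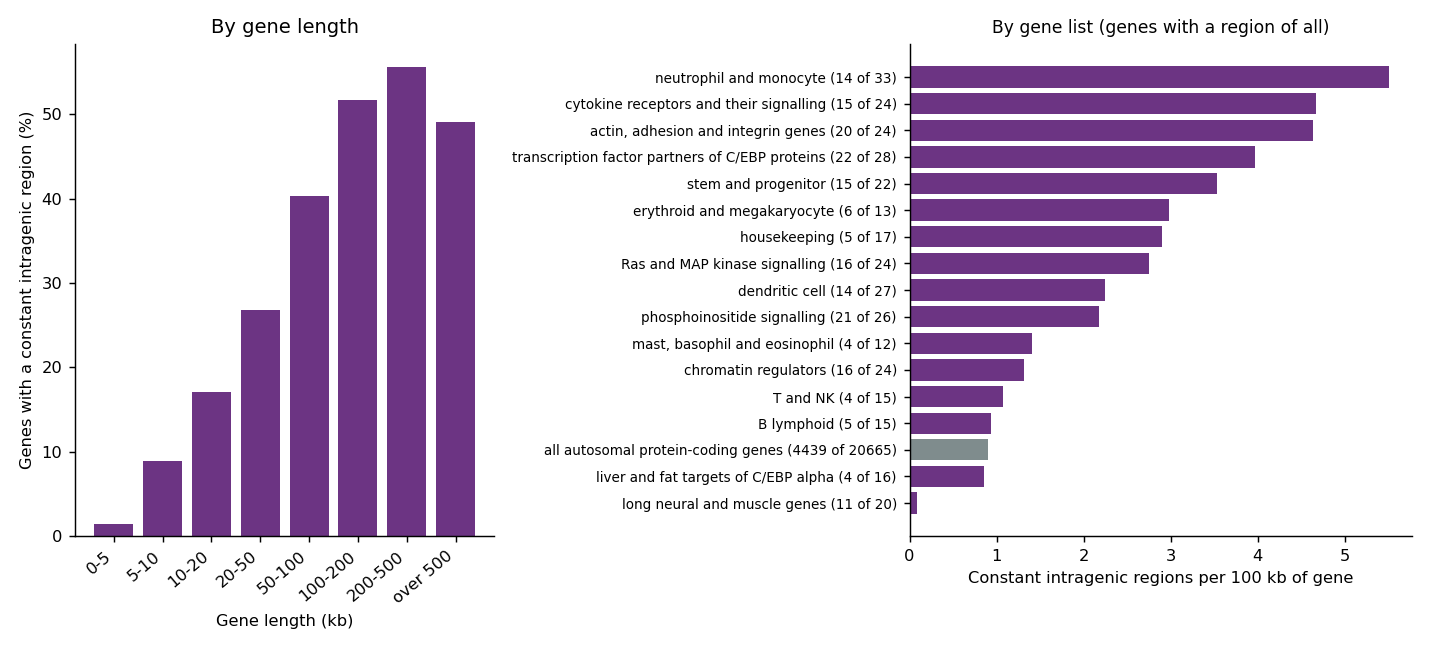
Left, share of autosomal protein-coding genes with a constant intragenic region (%) by gene length in kb. Right, constant intragenic regions per 100 kb of gene for 16 gene lists, with the number of genes holding one out of all its autosomal genes, and for all 20665 genes (grey, 0.907 per 100 kb). Neutrophil and monocyte genes are at the top with 5.50 and long neural and muscle genes at the bottom with 0.0811.

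Gene lists differed in how densely they held regions, beside 0.907 per 100 kb over all autosomal protein-coding genes. That value is not matched for gene length. It was 1.43 in genes of 5 to 10 kb, 1.49 at 10 to 20 kb, 1.32 at 20 to 50 kb and 0.227 over 500 kb. Lists of short genes are therefore to be read beside the higher values. Neutrophil and monocyte genes held 5.50 per 100 kb, in 14 of 33 genes (42.4%). They included Spi1, which encodes PU.1, with 4, the IgG receptor gene Fcgr3 with 4, Trib1, which targets C/EBPα for degradation, with 3, and single regions in Csf1r, Csf3r, Klf4, Gfi1 and Ltf. Among the genes of the list without a region were Fn1 (67.8 kb), Irf8 (20.3 kb), Tlr4 (19.0 kb), Mpo (10.6 kb) and Fes (10.2 kb), where the 1 kb rule leaves room. The C/EBP genes of the list are too short to be read here, since the 1 kb rule leaves no room in Cebpb (1.52 kb) and Cebpe (1.81 kb) and little in Cebpd (2.26 kb) and Cebpa (2.64 kb). The genes of the list were short, with a median of 8.45 kb, and 6 of the 8 that reached 20 kb held a region. Of all autosomal protein-coding genes of at least 20 kb, 3490 of 9576 (36.4%) did. Genes of cytokine receptors and their signalling held 4.66 per 100 kb, in 15 of 24 genes, among them Irak2, a kinase of interleukin-1 and Toll-like receptor signalling, with 14, and Il1r1 with 6. Actin, adhesion and integrin genes held 4.63 per 100 kb, in 20 of 24, led by Lcp1, the leukocyte actin bundler L-plastin, with 13 and the kinase gene Lyn with 8. Partner factors of C/EBP proteins held 3.97 per 100 kb, in 22 of 28 genes, with 22 regions in Foxp1, 13 in Runx1 and 8 in Runx2, and 0 in Atf3 (13.0 kb) and Batf2 (8.08 kb).

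Stem and progenitor genes held 3.53 regions per 100 kb, in 15 of 22 genes, with 19 in Etv6, 13 in Runx1, 7 in Fli1 and 6 in Erg. Kit, a receptor used for the sort, held none. Dendritic cell genes held 2.25, in 14 of 27 genes, with 8 in Runx2, 7 in Notch2 and 6 in Flt3, the other receptor used for the sort. Dendritic cell genes without a region, though the 1 kb rule leaves room, included Itgae (56.9 kb), Ciita (51.1 kb) and Relb (23.2 kb). Irf4 (17.7 kb) and Clec9a (15.9 kb) held none either. Zeb2 itself, on the dendritic cell list, held 3 regions. The Zeb2 region at 45049259 to 45049706 on chromosome 2 had scaled pileups of 60.5 and 42.9 in DC, 58.6 and 58.9 in DE, and 40.4 and 51.5 in WT, with DC overlapping WT and both DE libraries above it. The Zeb2 region at 45112055 to 45112407 had 34.6 and 24.5 in DC, 30.1 and 34.0 in DE, and 27.2 and 17.9 in WT. The Zeb2 region at 45085664 to 45085949 had 13.0 and 23.0 in DC, 20.9 and 15.9 in DE, and 36.3 and 36.8 in WT, so every variant library lay below WT there. None of the 3 passed the test in DC or DE. The lowest limma adjusted p-values, both at 45085664, were 0.102 in DC and 0.222 in DE.

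Phosphoinositide signalling genes held regions in 21 of 26 genes at a median length of 106 kb and 2.18 per 100 kb. Ras and MAP kinase genes held them in 16 of 24 at 2.75, and chromatin regulators in 16 of 24 at 1.32. B lymphoid genes held regions in 5 of 15 genes at 0.933 per 100 kb, of which Bach2 had 6, and T and NK genes in 4 of 15 at 1.08. Mast, basophil and eosinophil genes held them in 4 of 12 at 1.41, and erythroid and megakaryocyte genes in 6 of 13 at 2.98. Targets of C/EBPα in liver and fat held regions in 4 of 16 genes (Acaca, Pparg, Adipoq and Lipe) at 0.851 per 100 kb. Housekeeping genes held them in 5 of 17 at 2.90, and long neural and muscle genes in 11 of 20, but at 0.0811 per 100 kb over a median length of 1511 kb. Of all genes over 500 kb, 49.1% held a region, at 0.227 per 100 kb.

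The strongest constant intragenic regions were ranked by the worst of their 6 ranks in fold. Values per library from here on are scaled pileups unless called folds. Mknk1, the kinase of the cap-binding factor eIF4E, ranked at the top (chr4:115847250-115847939) with folds of 278 and 100 in DC, 172 and 134 in DE, and 128 and 82.1 in WT. Its scaled pileup was 363 and 282 in DC, 398 and 293 in DE, and 494 and 264 in WT, and the genotypes overlapped. Ptges, a prostaglandin E synthase (chr2:30929522-30930232), followed with scaled pileups of 371 and 362 in DC, 301 and 316 in DE, and 416 and 346 in WT. The region in Fam217b had 306 and 304 in DC, 294 and 315 in DE, and 320 and 254 in WT. The others of the top 10 were in Itga8 (an integrin chain), Papss2 (which makes the sulfate donor), Ssh2 (a cofilin phosphatase), Lamtor4 (a Ragulator subunit), Cdkl3, Cacna1d (a calcium channel subunit) and Pcdh17 (a protocadherin). Their lowest folds of the 6 libraries lay between 63.3 in Cacna1d and 83.6 in Lamtor4. None of the 10 differed between DC or DE and WT at an adjusted p below 0.05.

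The SD of the log2 scaled pileup over the 6 libraries had a median of 0.397, against 0.436 in gene-end regions, 0.389 in the near intergenic ones and 0.404 in those farther out. In 45.6% of the regions the highest library was less than 2-fold above the lowest, and in 322 (3.54%) it was at least 4-fold above. The region in Pdlim7, a scaffold of actin filaments, was among the 4 most even, with 96.4 and 95.1 in DC, 90.3 and 97.4 in DE, and 91.8 and 88.3 in WT. Lcp1, Ttll1 and Ipmk, an inositol phosphate kinase, held the others. The uneven ones were of different kinds. The region in Apba1, an adaptor of amyloid precursor protein, split by batch, with 73.5, 56.0 and 66.6 in replicate 1 of DC, DE and WT, against 12.3, 13.6 and 12.6 in replicate 2. The region in Man2b2, a lysosomal mannosidase, had 35.8 and 113 in DC, 16.7 and 48.7 in DE, and 8.07 and 20.0 in WT, so that replicate 2 lay above replicate 1 in each genotype and, within each batch, DC lay highest and WT lowest. Those in Asic2 and Hbs1l split by genotype and are given with the comparisons.

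Genotypes were compared with limma on the log2 scaled pileup over all 23480 regions called in all libraries. With so few libraries, its empirical Bayes step takes most of each region's variance from a trend over all regions. The p-values therefore do not rest on the spread at that region alone. A region needed a call in every library to enter, so sites lost or gained outright by a genotype are not among them. In the fit planned as the main one, without batch, no region passed at an adjusted p below 0.05 in any comparison (0 of 9091 here). At an unadjusted p below 0.05 there were 847 constant intragenic regions (9.32%) in DC against WT, beside 7.98% of all regions, and 509 (5.60%) in DE against WT, beside 4.87%. The labels place 1 library of each genotype in each batch, and with batch as a term many passed. The counts and p-values that follow carry the batch term, n = 2 libraries per genotype, and all changes are relative to the median region.

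In DC, 362 constant intragenic regions (3.98%) were higher than in WT and 111 (1.22%) were lower, beside 3.15% higher and 1.17% lower among all 23480 regions tested. In DE, 117 (1.29%) were higher and 23 (0.253%) lower than in WT, beside 1.12% and 0.264%. These shares were near those of all regions. Among gene-end regions, 1.01% were called higher and 0.522% lower for DC, with 0.335% and 0.242% for DE. Near intergenic regions had 3.59% higher and 1.58% lower for DC, with 1.28% and 0.316% for DE. Those farther out had 4.01% and 1.51% for DC, with 2.00% and 0.267% for DE. Of these classes, gene ends had the lowest share of higher regions for both variants, and no difference between classes was tested. DC and DE were set against the same WT libraries, so their calls are not independent of each other. The 362 regions higher in DC lay in 337 genes, and in 350 of them both DC libraries were above both WT libraries. Their median scaled pileup in WT was 25.9, against 33.9 over all constant intragenic regions, and their WT background lay 1.35 times over the floor, the most common background value of a library, against 1.77. The 111 lower in DC had a WT median of 52.6. Those higher in DE had 27.7 and those lower in DE 59.7. WT values took part in the calls. Low WT medians in the higher sets and high ones in the lower sets therefore follow in part from the selection. The median of the mean scaled pileup over all 6 libraries was 46.0 in the regions higher in DC and 34.6 in those lower. It was 55.3 and 36.1 in DE, against 34.3 over all constant intragenic regions. The median log2 difference was 1.28 in the regions higher in DC (range 0.71 to 2.60) and -1.33 in those lower (-2.51 to -0.73), and 1.30 (0.80 to 2.75) and -1.46 (-1.84 to -0.89) in DE.

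**Figure D4:**
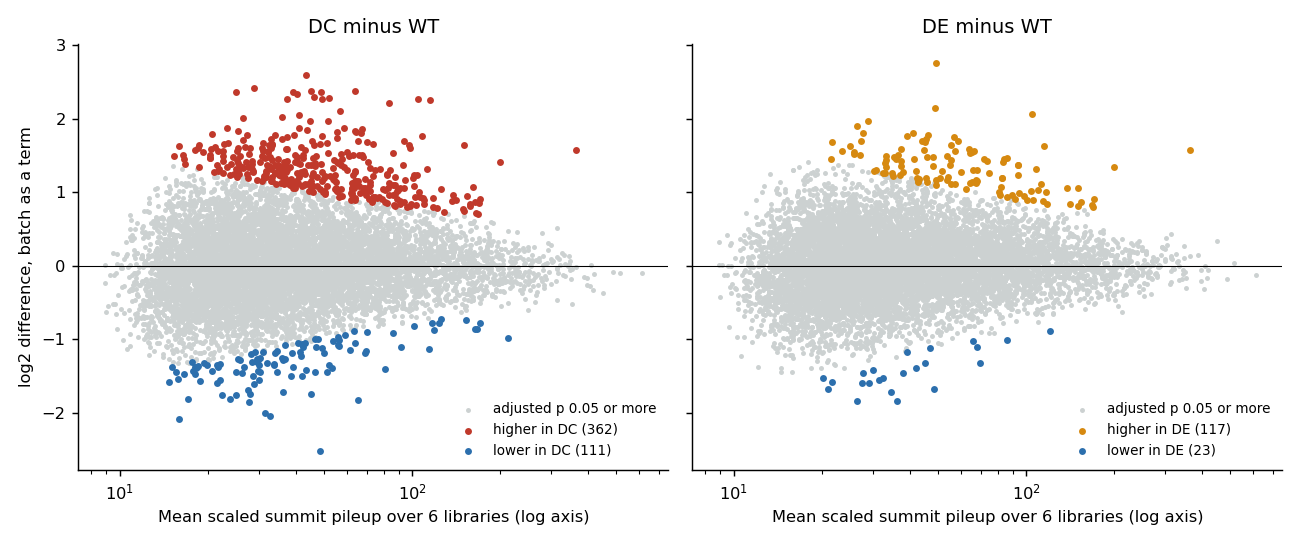
log2 difference of each of the 9091 constant intragenic regions with batch as a term (vertical axis) against its mean scaled summit pileup over 6 libraries (horizontal, log axis), for DC minus WT (left) and DE minus WT (right). Coloured points passed at an adjusted p below 0.05, 362 higher and 111 lower in DC, and 117 higher and 23 lower in DE.

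The calls rested on few libraries. Without 1 library a genotype has a single library, and the fit has 1 residual degree of freedom in place of 2. The spread then comes from the other genotypes and, mostly, from the trend over all regions. The lone library is assumed to vary like the others. The counts of these runs are not set beside all regions, so they describe only how the calls depend on single libraries. With WT replicate 1 left out, 273 were higher and 60 lower in DC. Leaving out WT replicate 2 gave 122 and 23, DC replicate 1 gave 74 and 26, and DC replicate 2 gave 71 and 17. Only 36 of the 362 and 3 of the 111 passed in all of these 4 runs. For DE the counts were 96 higher and 16 lower without WT replicate 1, 42 and 2 without WT replicate 2, 55 and 13 without DE replicate 1, and 35 and 12 without DE replicate 2, and 13 of 117 and 0 of 23 passed in all 4. Leaving out a DC library gave 82 higher in DE in both cases. The genes named next are those with the smallest adjusted p and the same sign in both batches. When libraries were scaled by their background floors, the median log2 difference of all regions shifted by 0.86 in DC and 0.55 in DE. Then 329 were higher in DC (beside 2.91% of all regions) and 2 in DE (beside 0.0298%), and 0 were lower in either (0.0%), so the direction of the median and every lower call depend on the scaling.

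The region in Prkch, protein kinase C eta, at chr12:73755613-73756180 had 165 and 205 in DC, 107 and 133 in DE, and 27.2 and 54.6 in WT. Both variants were above WT, by 2.25 ± 0.25 in DC and 1.63 ± 0.25 in DE on the log2 scale (SE; limma adjusted p = 2.67e-10 and 5.38e-06). Tbc1d16, a GTPase-activating protein for Rab proteins, held the highest of the named changed regions (chr11:119191572-119192420), with 508 and 420 in DC, 521 and 412 in DE, and 181 and 134 in WT. The log2 difference from WT was 1.57 ± 0.19 in both variants (limma adjusted p = 5.93e-09 in DC and 1.55e-08 in DE). Ank3, the membrane adaptor ankyrin-G, had 82.8 and 135 in DC, 62.7 and 60.0 in DE, and 17.2 and 24.2 in WT (chr10:69884101-69884708). Its log2 difference was 2.38 ± 0.30 in DC and 1.59 ± 0.30 in DE, and the DE call ended without DE replicate 1 (limma adjusted p = 0.114).

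Reep6, a shaper of the endoplasmic reticulum, had 122 and 158 in DC, 71.9 and 87.2 in DE, and 35.3 and 25.2 in WT, with DC highest, DE between and WT lowest. Pitpnc1, a phosphatidylinositol transfer protein, showed the same order with 203 and 251 in DC, 135 and 169 in DE, and 57.5 and 91.4 in WT. Acoxl, an acyl-CoA oxidase relative, had 183 and 138 in DC, 133 and 101 in DE, and 57.5 and 37.8 in WT. Their log2 differences in DC were 2.22 ± 0.27, 1.64 ± 0.22 and 1.77 ± 0.24, with limma adjusted p-values of 6.27e-09, 1.69e-07 and 1.83e-07. Their DE calls held for Acoxl without any 1 library of DE or WT, and ended for Reep6 without WT replicate 2 or DE replicate 2 (adjusted p up to 0.188) and for Pitpnc1 without WT replicate 1 or DE replicate 1 (up to 0.126). Gm46963, a predicted gene of 23.4 kb, was the one gene with 3 or more regions higher, with 4 of 4 in DC and 3 of 4 in DE. Its most changed region (chr6:86615239-86615794) had 76.6 and 92.0 in DC, 26.8 and 36.2 in DE, and 14.1 and 13.7 in WT, a log2 difference of 2.60 ± 0.34 in DC. All 8 named regions higher in DC, Thsd4 among them (values with DE), passed without any 1 library of DC or WT and with the background floor as scaling.

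The region in Arhgap22, a GTPase-activating protein for Rac, had 21.0 and 13.8 in DC, 32.6 and 28.3 in DE, and 92.8 and 102 in WT (chr14:33247601-33248040). All variant libraries lay below both WT libraries, with log2 differences of -2.51 ± 0.33 in DC and -1.68 ± 0.33 in DE (limma adjusted p = 6.39e-08 and 0.000769). Myo18a, an unconventional myosin, had 38.9 and 21.5 in DC, 77.0 and 49.8 in DE, and 112 and 93.5 in WT, a log2 difference of -1.82 ± 0.29 in DC. Lpp, a LIM protein of focal adhesions, had 34.0 and 58.3 in DC, 55.2 and 101 in DE, and 101 and 138 in WT, with -1.41 ± 0.26 in DC. These 3 regions passed in DC without any 1 library of DC or WT.

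Ptafr, the receptor of platelet-activating factor, had 16.7 and 12.3 in DC, 24.3 and 15.9 in DE, and 42.4 and 77.7 in WT. The Irak2 region chr6:113649388-113649885 had 31.5 and 15.3 in DC, 40.2 and 37.4 in DE, and 76.7 and 70.4 in WT. The strongest Irak2 region (chr6:113677256-113677883) had 169 and 140 in DC, 190 and 220 in DE, and 187 and 151 in WT, where the genotypes DC and WT overlapped and no call was made. The tetraspanin Cd82 had 25.9 and 7.67 in DC, 30.1 and 13.6 in DE, and 68.6 and 49.4 in WT. Nck2, an adaptor of tyrosine kinases, was the weakest, with 7.41 and 6.13 in DC, 15.9 and 9.06 in DE, and 31.3 and 26.3 in WT. Cd200r3, an activating receptor of basophils and mast cells, had 14.2 and 9.20 in DC, 28.4 and 29.4 in DE, and 52.5 and 32.6 in WT. Both DC libraries lay below both WT libraries in each of these 5 genes. In DC these 5 had log2 differences of -2.0 ± 0.38 (Ptafr), -1.74 ± 0.33 (Irak2), -2.05 ± 0.38 (Cd82), -2.09 ± 0.43 (Nck2) and -1.85 ± 0.38 (Cd200r3). Their calls ended without WT replicate 2 (Ptafr, Cd82, Nck2), WT replicate 1 (Cd200r3) or DC replicate 2 (Ptafr, Irak2, Cd82, Cd200r3), with adjusted p-values of up to 0.252 (Ptafr), 0.157 (Irak2), 0.105 (Cd82), 0.0776 (Nck2) and 0.0659 (Cd200r3).

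Gas7, an adaptor of the actin cytoskeleton, was the one gene with 3 regions lower in DC, of 8 in 236 kb. Its region at 67586238 to 67586794 on chromosome 11 had 63.0 and 55.2 in DC, 92.8 and 84.9 in DE, and 135 and 120 in WT. Its strongest region, at 67526502, had 290 and 267 in DC, 343 and 205 in DE, and 326 and 257 in WT, and did not pass (adjusted p = 0.928 in DC). Called and uncalled regions stood in the same gene, as in Irak2. The regions of Myadm and Anks3 printed above, with summits on an internal start site, were weak and lower in DC. Myadm had 16.7 and 27.6 in DC, 25.9 and 34.0 in DE, and 41.4 and 57.8 in WT (-1.19 ± 0.35, adjusted p = 0.0298). Anks3 had 18.5 and 24.5 in DC, 29.3 and 39.6 in DE, and 36.3 and 72.5 in WT (-1.27 ± 0.34, adjusted p = 0.0157). The Myadm call ended in each of the 4 runs without 1 library of DC or WT, and the Anks3 call in 3 of them, without WT replicate 2 or either DC library, with adjusted p-values of up to 0.365 and 0.382. Of the 473 regions over internal start windows, 1 was higher and 4 were lower in DC, beside 3.15% higher and 1.17% lower over all regions tested, and 0 and 2 in DE, beside 1.12% and 0.264%.

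In DE the largest rise over WT was in Asic2, an acid-sensing ion channel gene (chr11:81806911-81807308), with 43.2 and 72.1 in DC, 69.4 and 87.2 in DE, and 14.1 and 9.46 in WT. The log2 difference was 2.27 ± 0.34 in DC and 2.75 ± 0.34 in DE (limma adjusted p = 1.1e-06 and 1.55e-08). Hbs1l encodes a GTPase that rescues stalled ribosomes and neighbours Myb, a gene of the stem and progenitor list. The Hbs1l region had 93.3 and 50.6 in DC, 74.4 and 47.6 in DE, and 17.2 and 10.5 in WT. Its log2 differences were 2.36 ± 0.33 in DC and 2.15 ± 0.33 in DE. Ccdc57 had 76.6 and 92.0 in DC, 70.3 and 61.2 in DE, and 20.2 and 18.9 in WT. Stard5, a sterol-binding protein, had 75.4 and 87.4 in DC, 62.7 and 82.7 in DE, and 22.2 and 22.1 in WT. Sytl3, an effector of Rab27 in vesicle release, had 261 and 250 in DC, 202 and 290 in DE, and 108 and 85.1 in WT, and Thsd4, a matrix protein gene, 124 and 176 in DC, 110 and 152 in DE, and 47.4 and 20.0 in WT. Every DC and DE library was above both WT libraries in these 6 regions and in Prkch and Tbc1d16. In DE all 8 passed without any 1 library of DE or WT, but with floor scaling only Asic2 and Hbs1l did (adjusted p = 0.00166 and 0.0437).

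Regions lower in DE were fewer. Ncf1, the p47phox subunit of the phagocyte NADPH oxidase, had 31.5 and 19.9 in DC, 36.0 and 20.4 in DE, and 85.8 and 58.8 in WT. Its log2 difference was -1.50 ± 0.33 in DC and -1.39 ± 0.33 in DE (limma adjusted p = 0.00172 and 0.0104). Kcnma1, a potassium channel, had 18.5 and 23.0 in DC, 22.6 and 15.9 in DE, and 76.7 and 59.9 in WT, and Ralgds, an activator of Ral GTPases, 63.0 and 38.3 in DC, 65.2 and 29.4 in DE, and 129 and 92.5 in WT. Cmip had 30.3 and 15.3 in DC, 13.4 and 11.3 in DE, and 40.4 and 48.3 in WT. Chd9, a chromatin remodeller, Foxk1, a forkhead factor, and Abcb9, a lysosomal peptide transporter, were lower in DE as well, with log2 differences of -1.71 ± 0.37, -1.46 ± 0.35 and -1.60 ± 0.38. Both DE libraries lay below both WT libraries at each of these 7 regions and at Arhgap22. The DE call of each ended without at least 1 library of DE or WT, with adjusted p-values of up to 0.0796 (Kcnma1), 0.18 (Arhgap22), 0.208 (Ralgds), 0.278 (Cmip), 0.221 (Ncf1), 0.337 (Abcb9), 0.441 (Chd9) and 0.442 (Foxk1).

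**Figure D5:**
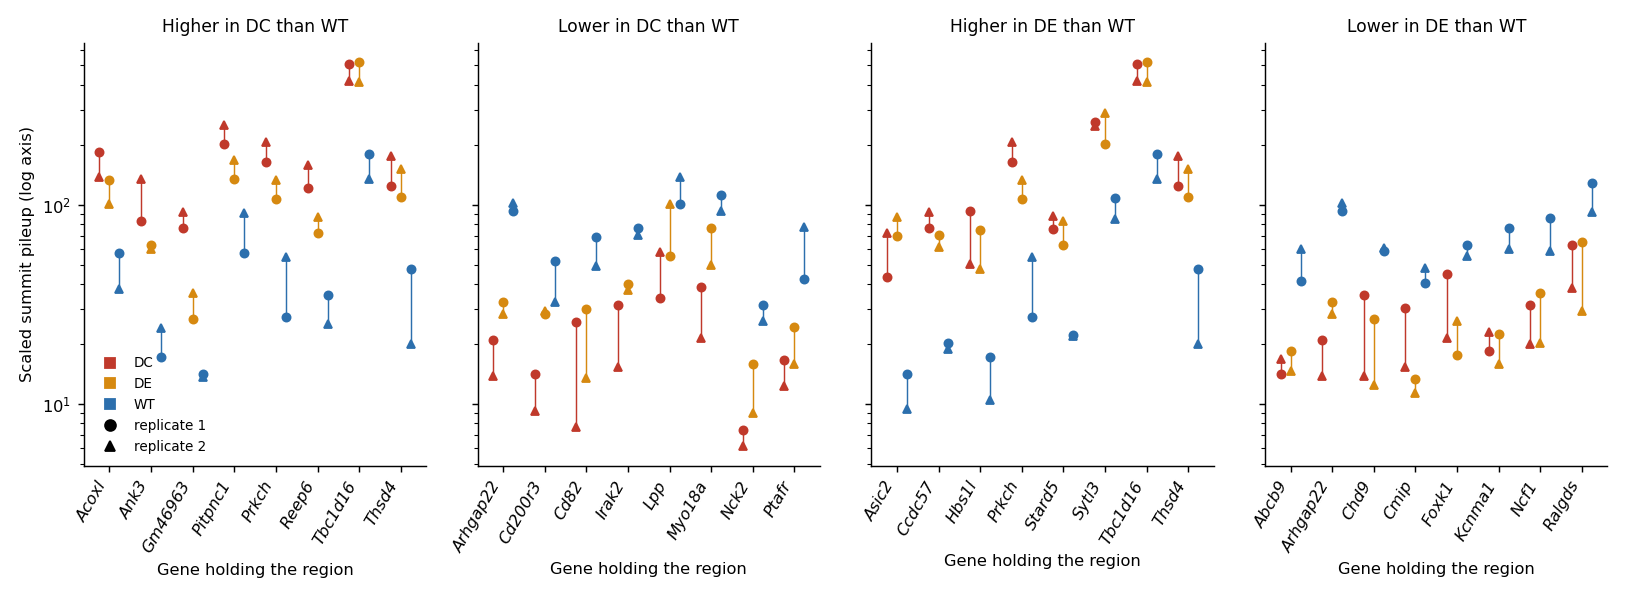
Scaled summit pileup (log axis) of the 8 named regions higher and the 8 lower in DC than WT (left pair of panels) and likewise in DE (right pair), by the gene that holds them, with DC, DE and WT side by side and 1 point per library (circle, replicate 1; triangle, replicate 2). In the regions higher in DC or DE, the WT points lie below the points of that variant, and in the lower ones above them.

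Counts in the gene lists are read beside the 3.98% of all constant intragenic regions that were higher and the 1.22% lower in DC, and the 1.29% and 0.253% in DE, and no list was tested against these shares. The median log2 difference of all 9091 constant intragenic regions was 0.0037 in DC and 0.017 in DE. In the lists it ran from -0.35 (housekeeping, 7 regions) to 0.77 (T and NK, 4 regions) in DC, and from -0.17 (cytokine signalling, 50 regions) to 0.80 (T and NK) in DE. The neutrophil and monocyte list had 0 of 24 higher and 1 lower in DC, with a median log2 difference of -0.18. That region, in the fractalkine receptor gene Cx3cr1, had 148 and 87.4 in DC, 215 and 125 in DE, and 213 and 201 in WT (-0.86 ± 0.22, adjusted p = 0.00937; ended without WT replicate 2, DC replicate 1 or DC replicate 2, with p up to 0.5). None of its 24 passed in DE. The dendritic cell list had 1 of 47 higher in DC, in Naaa, a lipid hydrolase marking cDC1, with 36.4 and 46.0 in DC, 20.1 and 24.9 in DE, and 18.2 and 7.35 in WT. In DE it had 1 higher, in Zbtb46, a factor of classical dendritic cells, and 1 lower, in Nfil3. Zbtb46 had 24.1 and 29.1 in DC, 77.0 and 47.6 in DE, and 22.2 and 28.4 in WT, so only DE was above WT (1.27 ± 0.34, adjusted p = 0.0345). Nfil3, a factor of dendritic cell and lymphoid development, had 127 and 96.6 in DC, 66.9 and 112 in DE, and 172 and 149 in WT (-0.89 ± 0.24 in DE). The calls in Naaa, Zbtb46 and Nfil3 ended in 2 or 3 of the 4 runs without 1 library, with adjusted p-values of up to 0.37, 0.57 and 0.654.

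Of the 68 stem and progenitor regions, 1 was lower in DC, in the adhesion receptor gene Adgrg1 (-1.25 ± 0.37), and none passed in DE, where the Adgrg1 region had a difference of -1.24 ± 0.37 (adjusted p = 0.0628). The 13 Runx1 regions are among those that did not pass. In the B lymphoid list 2 of 11 were higher in DC, in Bach2 (0.89 ± 0.28) and Foxo1 (1.24 ± 0.30). Of 100 partner factor regions, Stat5b was higher in DC and DE, with 119 and 88.9 in DC, 140 and 118 in DE, and 49.4 and 49.4 in WT, and 1 of 22 in Foxp1 was lower in DC (-1.07 ± 0.32). The Stat5b call in DE (1.38 ± 0.25) passed without any 1 library of DE or WT. That in DC (1.06 ± 0.25) did not, with an adjusted p of up to 0.312. The calls in Adgrg1, Bach2, Foxo1 and Foxp1 also ended with 1 library left out, with p up to 0.544, 0.496, 0.233 and 0.375.

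Phosphoinositide signalling had 5 of 95 higher in DC, in Prkch, Pik3r1 (1.79 ± 0.41), Pik3ap1 (1.16 ± 0.35) and Itpr2 (1.11 ± 0.33 and 0.87 ± 0.26), and none lower. Ras and MAP kinase genes had 4 of 57 higher in DC, 2 in the Ras pathway inhibitor Spred2 (1.83 ± 0.29 and 1.56 ± 0.39), 1 in Map3k5 (1.27 ± 0.33) and 1 in Nf1 (0.86 ± 0.21), and 1 lower, in Mapk14 (-1.17 ± 0.36). Actin and adhesion genes had 3 of 75 higher in DC, in Actn1 (1.75 ± 0.34), Evl (1.14 ± 0.34) and 1 of 13 in Lcp1 (1.06 ± 0.27), and Cd82 lower. In the mast cell list Mitf was higher in DC (1.28 ± 0.38), and among long neural genes Dab1 (1.28 ± 0.34). In DE, Nf1 (0.80 ± 0.21) and Actn1 (1.42 ± 0.34) were higher and Cd82 lower (-1.52 ± 0.38). The DE calls of Nf1 and Actn1 ended in each of the 4 runs without 1 library of DE or WT, and that of Cd82 in 3 of them (adjusted p up to 0.299, 0.241 and 0.492). On the deposited fold Nf1 had a log2 difference of 0.22 in DC and 0.22 in DE (limma adjusted p = 0.832 and 0.879). Cytokine signalling had Irak3 higher (1.08 ± 0.30) and Irak2 lower. Among chromatin regulators Hdac4 was higher (1.06 ± 0.33). No region of the erythroid, liver and fat, or housekeeping lists passed in either variant. Of these calls in DC, only those of Prkch and the Spred2 region at 1.83 passed without any 1 library of DC or WT. The largest adjusted p of the rest with 1 library left out ran from 0.0876 in Actn1 to 0.737 in Pik3ap1.

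DC and DE were also compared with each other. With batch as a term 1 constant intragenic region was higher and 3 were lower in DC than in DE, beside 0.00852% and 0.0213% of all regions tested. They lie in Prkar1b, Xxylt1, Rab7b and Naip2, and none passed without the batch term, where 248 (2.73%) had an unadjusted p below 0.05, beside 2.38% of all regions.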

How the data were processed

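C/EBPα CUT&RUN was measured in 6 libraries. The submitters' processing notes name the mm10 build and, without roles, HOMER, MACS2 2.2.9.1, SAMtools, Bowtie2 and Trimmomatic. Peaks were deposited per library, with a fold over local background, a −log10 p-value, a −log10 q-value and a summit position; the file names give a q of 0.1. The deposited fold and −log10 p together gave the summit pileup and local background, with a tolerance of 5% of a step. Read totals were not in the files, so the depth is unknown and no counting interval is given. Pileups were divided by the median ratio over the 23480 regions called in all 6 libraries. Log2 scaled pileups were fitted with limma 3.58.1 (R 4.3.3, trend, empirical Bayes), with Benjamini-Hochberg adjustment over all 23480 regions, first without and then with batch as a term. The labels place replicate 1 of each genotype in batch 1 and replicate 2 in batch 2, and deviations of libraries of the same batch correlated across regions (r = 0.384 for DC and DE, 0.548 for DC and WT, 0.415 for DE and WT). The region rule needs calls in all libraries, so it used the same values. Regions and gene lists were chosen with earlier results of these data known. Named regions are the 10 strongest by the worst of 6 ranks in fold, the 4 most even and 4 most uneven, the 8 with the smallest adjusted p in each direction and the same sign in both batches (DC and DE against WT), regions of gene lists that passed, up to 3 strong regions per list, and the nearest on either side of the 1 kb limit, besides the 6 genes with the most regions. The other regions of Zeb2, Gas7 and Gm46963, the 8 regions printed with sequence and those that differed between DC and DE were named after their values were seen. Alternatives were background-floor scaling, the deposited fold, a filter on low pileups, fits of 2 genotypes, leaving out each library, a stricter q, 50 bp overlap and other distances or gene ends. Some calls in the gene lists, and 1 list, are not reported here. Recovery and fits were tested on simulated data. Python 3.11.15, numpy 2.4.6, pandas 2.3.3, scipy 1.17.1 and matplotlib 3.10.9 were used.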

Additional observations from a re-analysis of the deposited data

Results flagged for a closer look

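With batch as a term, 4 constant intragenic regions differed between the DC and DE variants, both set against the same WT libraries. The region in Prkar1b, a regulatory subunit of protein kinase A (chr5:139053200-139053418), had scaled pileups of 83.4 and 120 in DC, 28.4 and 38.5 in DE, and 20.2 and 21.0 in WT, a log2 difference of 1.59 between DC and DE. DC stood highest there, and both DE libraries lay above both WT libraries but nearer to WT than to DC. The region in Xxylt1, a xylosyltransferase (chr16:30961254-30961528), had 21.6 and 10.7 in DC, 57.7 and 48.7 in DE, and 41.4 and 25.2 in WT, a difference of -1.80. The Xxylt1 value of 10.7 in DC replicate 2 is 1 of 2 that matched the deposited fold and p-value, the other being 12.3. The region in Rab7b, a small GTPase of late endosomes (chr1:131691198-131691842), had 77.8 and 49.1 in DC, 186 and 97.4 in DE, and 160 and 115 in WT, a difference of -1.12. In Rab7b the WT values lay with those of DE. The region in Naip2, a sensor of bacterial secretion proteins (chr13:100183142-100183819), had 42.0 and 47.5 in DC, 112 and 99.7 in DE, and 88.8 and 70.4 in WT, a difference of -1.24. None of the 4 passed without the batch term, with background-floor scaling or on the deposited fold.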

How the results depend on the processing

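The number of constant intragenic regions stayed close to 9091 under a stricter q (8758), 50 bp overlap (9085), a 2 kb distance (8203) and the ends of all annotated genes (8703, chosen after seeing the data). Without the replicate block (batch as a term) no region passed, except that leaving out either WT library gave 1 higher in DC (range 0 to 1 with 1 library left out). In DC the block gave 362 higher and 111 lower. Floor scaling turned these to 329 and 0, the deposited fold to 90 and 30, a filter on low pileups to 363 and 104, and a fit without DE to 420 and 142. Over all regions tested (23480, or 19582 with the filter), the same 4 settings gave 683 and 0, 209 and 64, 741 and 256, and 860 and 359. Leaving out 1 library under the block gave 273 and 60 (WT replicate 1), 122 and 23 (WT replicate 2), 74 and 26 (DC replicate 1), 71 and 17 (DC replicate 2), 415 and 142 (DE replicate 1), and 428 and 150 (DE replicate 2). In DE the block gave 117 higher and 23 lower. Floor scaling turned these to 2 and 0, the deposited fold to 16 and 1, the filter to 133 and 25, and a fit without DC to 75 and 20. Over all regions tested they gave 7 and 0, 42 and 2, 286 and 68, and 167 and 49. Leaving out 1 library gave 96 and 16 (WT replicate 1), 42 and 2 (WT replicate 2), 82 and 18 (DC replicate 1), 82 and 19 (DC replicate 2), 55 and 13 (DE replicate 1), and 35 and 12 (DE replicate 2). A stricter q, 50 bp overlap, a 2 kb distance and all gene ends gave, under the block, 350, 361, 338 and 349 higher and 112, 110, 100 and 105 lower for DC, and 129, 119, 111 and 111 higher and 26, 23, 20 and 22 lower for DE. Over all regions tested they gave 724, 739, 739 and 739 higher and 270, 275, 275 and 275 lower for DC. For DE they gave 282, 265, 263 and 263 higher and 71, 63, 62 and 62 lower. DC against DE had 1 higher and 3 lower, 0 and 0 with floor scaling or the deposited fold, 1 and 4 with the filter or a stricter q, and 9 and 5 without WT in the fit. Over all regions tested, it had 2 and 5, 2 and 6 with the filter, 2 and 5 with a stricter q, and 16 and 14 without WT. Leaving out 1 library gave 8 and 5 (WT replicate 1), 8 and 6 (WT replicate 2), 0 and 0 (DC replicate 1), 0 and 1 (DC replicate 2), 1 and 0 (DE replicate 1), and 3 and 2 (DE replicate 2). Fold lay above gene ends in 6 of 6 libraries, pileup in 2. The fold lay below that of the constant regions between genes in each library. Among genes of at least 20 kb, 6 neutrophil and monocyte genes held a region (14 of any length), 3 erythroid (6), 2 liver and fat (4) and 2 housekeeping (5). Of all autosomal protein-coding genes of that length, 3490 of 9576 (36.4%) did. The cause of these shifts was not tested, and without read totals no depth limit could be set.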
